A study of Mus musculus with 6 samples.

Results

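The genes described here encode amino acid transporters, the membrane proteins that carry amino acids and small peptides into cells, out of cells and out of lysosomes. The list held 31 genes of the Slc1, Slc3, Slc6, Slc7, Slc15, Slc36, Slc38 and Slc43 families, named by the known function of their products, and 30 of them were measured among 22180 genes. Slc43a3, listed with its family, is instead known in human cells as a carrier of purine nucleobases. Slc6a9, a glycine carrier, had a probe set that also names another gene and was not analysed here. Signal came from 6 microarrays, 3 of Evi1 Tg leukaemia cells and 3 of WT leukaemia cells. Both groups were untreated acute myeloid leukaemia cells driven by MLL-AF9 in mice of the C57BL/6J background, so the fusion oncogene was shared by both. The Evi1 Tg cells carried an Evi1 transgene in addition, and the WT cells did not. Evi1 is a zinc finger transcription factor encoded by Mecom. Each array read RNA of 10000 green fluorescent cells collected in a cell sorter. The sources used here state neither the transgene's promoter, nor the ages of the mice, nor that each array stands for its own animal. The p-values therefore measure the spread between these samples, which may be technical. The design asked how Evi1 Tg cells differ from WT cells, and the series title refers to metabolic reprogramming.

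Dividing cells take up amino acids for protein and nucleotide synthesis, and several carriers work as exchangers that trade an internal amino acid for an external one. Large neutral amino acids such as leucine enter through a heterodimer of the heavy chain encoded by Slc3a2 and a light chain of the Slc7 family. Glutamine, often imported by Slc1a5 and the Slc38 carriers, can serve as the exchanged partner. Lysosomal carriers return amino acids from degraded protein to the cytosol, where they bear on mTORC1, a kinase complex that couples nutrients to growth.

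Of the 30 measured transporters, 22 had a mean signal above background. Background was set at an intensity of 69.1 (arbitrary units), the 90th percentile of the means of 61 measured genes chosen as silent in blood cells, and 46.9% of all genes lay above it. Over the 6 arrays the 22 members read between 76.5 and 2421. The 8 members not above background were Slc1a1, Slc1a2, Slc1a3, Slc7a3, Slc7a10, Slc38a3, Slc38a4 and Slc43a1, with values between 30.8 and 70.6. Probe sets differ in how brightly they read, so levels of different genes are not ranked here. Group averages of a member's intensity are geometric means throughout. Bulk arrays cannot tell fewer cells of a type apart from less RNA per cell.

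**Figure D1:**
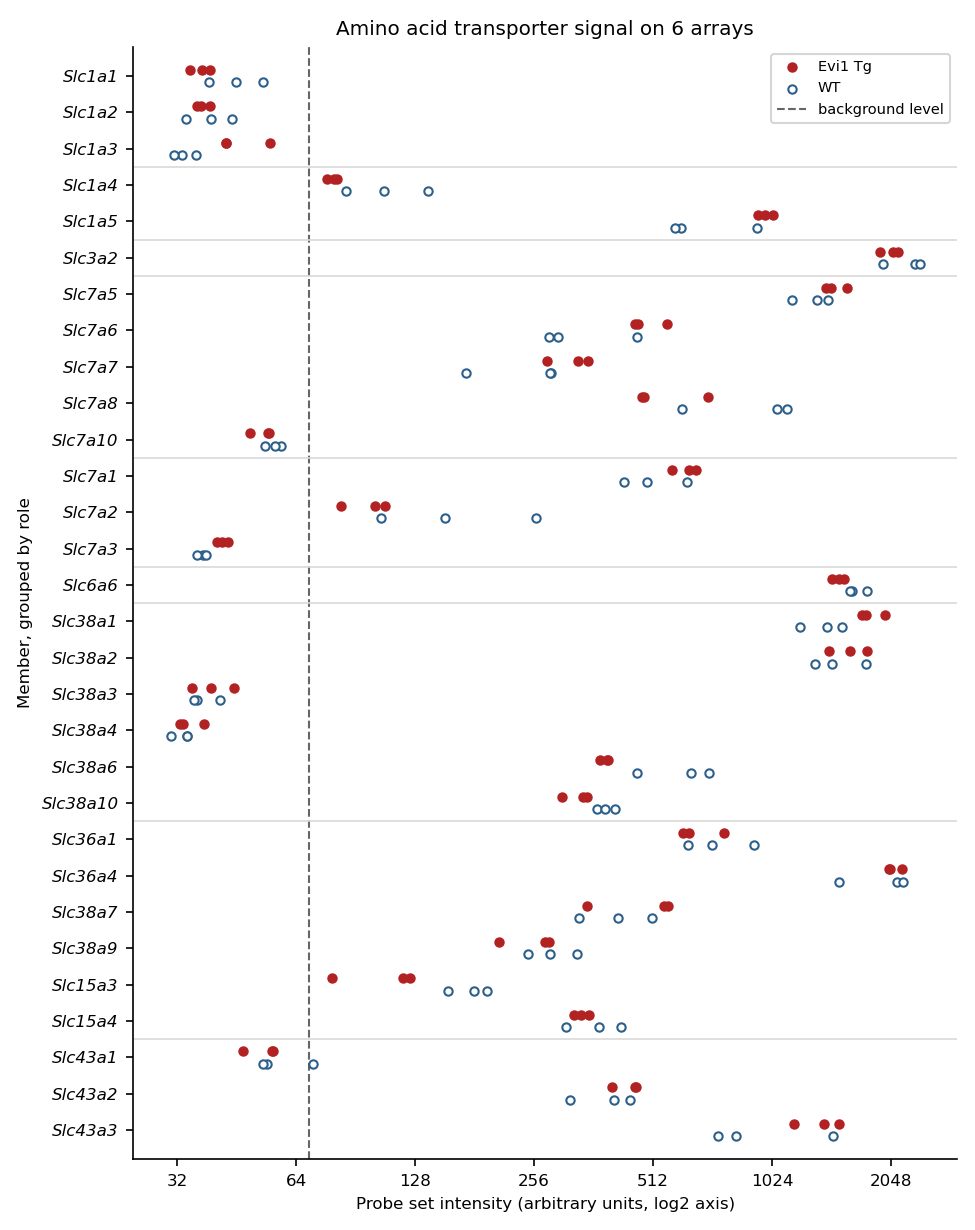
Intensity of the 30 measured transporters on each array (log2 axis, arbitrary units), with Evi1 Tg as filled red points above WT as open blue points and genes grouped by role. The dashed line marks the background intensity of 69.1, which 22 genes exceeded on average.

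The arrays had median intensities between 51.6 and 55.4, and their small number limits precision. Mecom read 40.7, 37.7 and 37.5 in Evi1 Tg 1, 2 and 3, against 39.4, 37.4 and 34.1 in WT 1, 2 and 3, all below background, so this probe set does not check the transgene and each direction rests on the labels. All 16 of 16 myeloid markers lay above background, against 0 of 3 measured erythroid markers, 0 of 6 of T and NK cells, 1 of 5 of B cells (Cd79b) and 1 of 7 of stromal and endothelial cells (Col1a1). For 7 mature neutrophil markers the summed intensity ran from 460 to 4452 in Evi1 Tg and from 1160 to 4878 in WT. For 6 eosinophil and mast cell markers it ran from 296 to 347 in Evi1 Tg and from 284 to 1027 in WT, and for 4 megakaryocyte markers from 257 to 339 in Evi1 Tg and from 254 to 603 in WT. By gene, 6 of 7 mature neutrophil markers had a log2 difference, Evi1 Tg minus WT, below 0, with a median of -0.73. So did 6 of 6 eosinophil and mast cell markers (median -0.32) and 2 of 4 megakaryocyte markers (median -0.45). Over all genes, 10303 of 22180 lay below 0. In these lists 5, 2 and 3 markers lay above background. The part of such cells in the transporter values was not tested.

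With all 6 arrays, 0 of the 30 transporters passed limma after Benjamini-Hochberg adjustment across the whole table, the smallest adjusted p being 0.234. The same test called 0.00902% of all genes higher and 0.104% lower in Evi1 Tg. At an unadjusted limma p under 0.05 there were 4 members with a positive and 7 with a negative difference, or 36.7% of the members, against 10.3% of all genes. Among the members above background the share was 9 of 22 (40.9%), against 17.4% of all genes above background. The groups did not overlap for 9 members, or 30% of them, against 14.6% of all genes. Among those above background this held for 7 of 22 (31.8%), against 19.0%. The list was chosen with earlier results of these data known, so these shares are a description and were not tested. The differences had no common sign. As many members lay above 0 as below it, at 15 each, and the median log2 difference was 0.00092, against 0.012 over all genes. For any single gene, the smallest exact two-sided permutation p that 3 arrays in each group allow is 0.1.

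**Figure D2:**
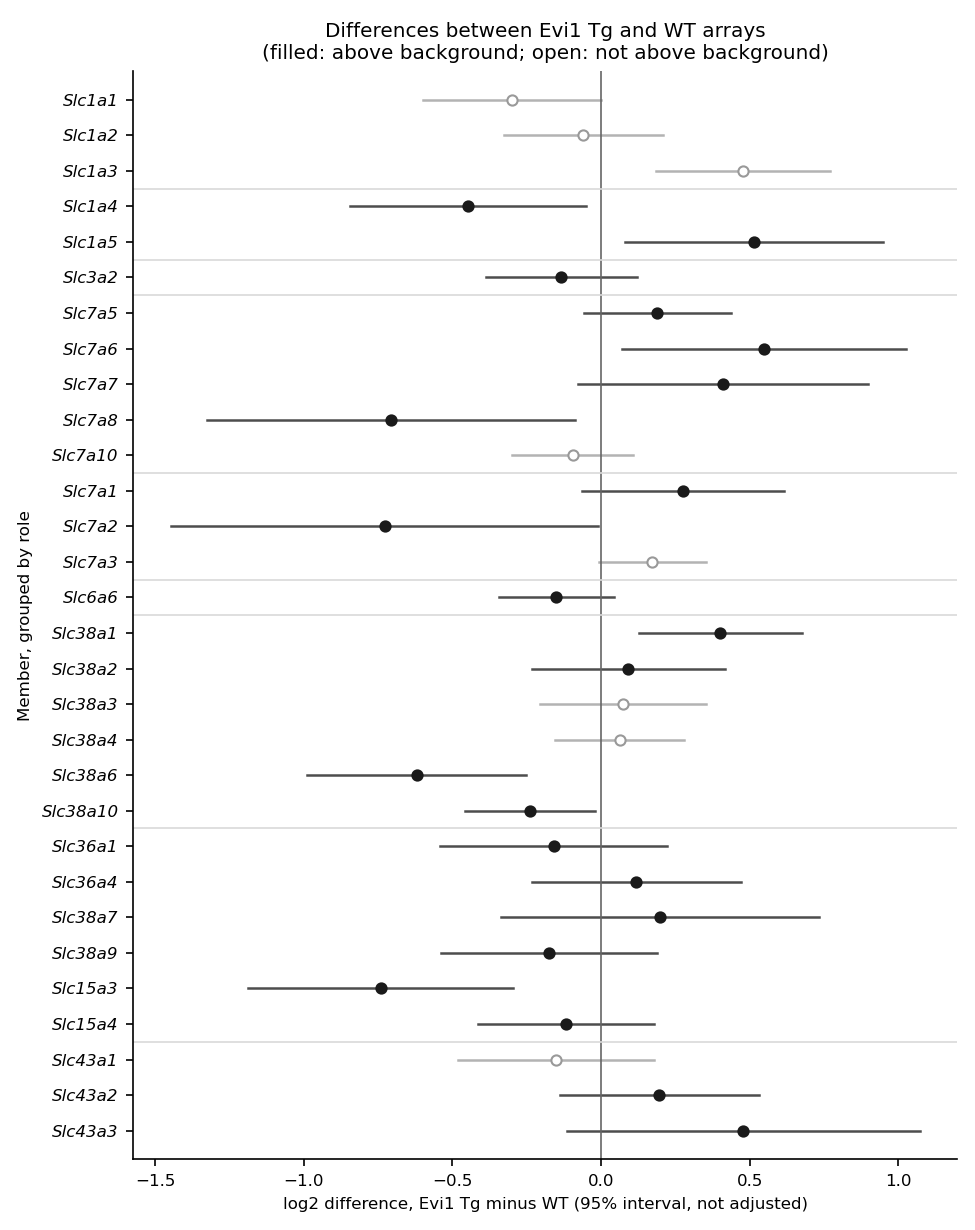
Log2 difference, Evi1 Tg minus WT, for each measured transporter with its unadjusted 95% interval from limma, where filled points are genes above background and open points are not. Positive and negative differences are equal in number, at 15 each, and 0 genes passed the adjusted test.

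The within-group SD was greater in WT than in Evi1 Tg for 18 of the 22 members above background, with a median log2 SD of 0.11 in Evi1 Tg and 0.27 in WT. Of all genes above background, 66.5% had the greater SD in WT, and the median SD was 0.13 in Evi1 Tg and 0.20 in WT. For 11 of the 22 members WT 3 was nearer to the Evi1 Tg mean than to the mean of WT 1 and WT 2, and 60.0% of all genes above background had this order.

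The neutral exchangers of the Slc1 family pointed in opposite directions. Slc1a5, the sodium-dependent exchanger known for glutamine uptake in dividing cells, read 946, 986 and 1028 in Evi1 Tg 1, 2 and 3, against 602, 581 and 939 in WT 1, 2 and 3. All Evi1 Tg arrays lay above all WT arrays, but WT 3 came within reach of the lowest of them. The log2 difference was 0.51 (n = 3 per group here and throughout; SE 0.184, limma adjusted p = 0.395), a ratio of geometric means of 1.43. A second Slc1a5 probe set read 216, 214 and 207 in Evi1 Tg, against 136, 135 and 173 in WT. It too kept the groups apart, with a difference of 0.53 (SE 0.116, adjusted p = 0.179 in limma over all probe sets with a single symbol).

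Slc1a4, an exchanger of alanine, serine and cysteine, read 76.5, 79.9 and 81.4 in Evi1 Tg, against 107, 85.4 and 138 in WT. The Evi1 Tg arrays lay close together just over background and below every WT array, while the WT arrays were spread. The log2 difference was -0.45 (SE 0.168, limma adjusted p = 0.422).

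Slc1a4 was also a transporter whose promoter window matched a composite element of ATF4, a transcription factor induced by amino acid shortage, and the window is shown for that match. RefSeq windows from 250 bases before to 50 bases after a gene's start (build GRCm38.p6) were found for 22 of the 31 transporters. Slc1a5, Slc6a6, Slc7a2, Slc7a3, Slc7a5, Slc15a3, Slc38a1, Slc38a3 and Slc43a3 had no window and were not searched. The windows found were searched on both strands, and no matches within a transporter's window overlapped. TGATGNAA, the ATF4 element, occurred in 3.97% of all 32851 windows and in 3 of the 33 transporter windows (9.09%), which belong to Slc1a4 and Slc7a7, since a gene can have several overlapping windows. CACGTG, the E-box read by MYC and by the lysosomal regulators TFEB, TFE3 and MITF, occurred in 7.15% of all windows and in 3 of the 33 (9.09%), those of Slc36a1, Slc38a7 and Slc43a1. ACAAGATA, a GATA-type site reported for EVI1, occurred in 0.575% of all windows and in 0 of the 33. Such a match describes the letters and not binding. In the Slc1a4 window (chr11:20332664-20332963, minus strand) the capitals mark the element, here on the opposite strand and starting 4 bases before the gene's start, at position -4. In the Slc36a1 window (chr11:55204090-55204389, plus strand) they mark 2 E-boxes, at positions -31 and -3, shown because Slc36a1 encodes a lysosomal carrier.
Slc1a4: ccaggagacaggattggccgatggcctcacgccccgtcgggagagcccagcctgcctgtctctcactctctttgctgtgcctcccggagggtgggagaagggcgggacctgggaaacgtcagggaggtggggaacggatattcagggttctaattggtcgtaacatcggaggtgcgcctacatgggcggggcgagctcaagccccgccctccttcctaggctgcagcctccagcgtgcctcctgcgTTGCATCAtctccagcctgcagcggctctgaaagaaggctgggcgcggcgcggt
Slc36a1: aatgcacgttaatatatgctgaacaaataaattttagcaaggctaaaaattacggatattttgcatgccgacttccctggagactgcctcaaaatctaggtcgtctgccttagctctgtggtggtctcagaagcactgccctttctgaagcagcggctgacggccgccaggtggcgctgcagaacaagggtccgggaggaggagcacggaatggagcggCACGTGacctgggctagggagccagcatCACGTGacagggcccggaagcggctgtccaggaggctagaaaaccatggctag

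The regulators named with these elements were read on the same arrays. Atf4 had 588, 586 and 651 in Evi1 Tg, against 698, 674 and 741 in WT, so the groups did not overlap (log2 difference -0.21, SE 0.0861, limma adjusted p = 0.462). Mitf read 128, 118 and 121 in Evi1 Tg, against 165, 182 and 149 in WT, again without overlap (-0.43, SE 0.0999, limma adjusted p = 0.208). The groups overlapped for Myc (0.19, SE 0.128), Tfe3 (-0.23, SE 0.115) and Tfeb (0.11, SE 0.0895), the last of which was not above background. Of 11 regulators of transporter genes 0 passed the test, 9 had a difference below 0 (10303 of all 22180 genes did), and the median over the list was -0.21. With Atf4 and Mitf, 3 of the 11 (27.3%) had groups that did not overlap, all lower in Evi1 Tg. This held for 14.6% of all genes and 19.0% of those above background. Atf4 and Mitf were the 2 of 11 (18.2%) with an unadjusted limma p under 0.05. The share was 10.3% of all genes and 17.4% of all genes above background. Neither of the 2 transporters with windows printed passed the test.

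The differences of the heavy chain and of the light chains among the members were of both signs, and 0 of these 6 genes passed the test. Slc3a2, the glycoprotein that brings the light chains to the cell surface, read 2129.9, 1918 and 2072 in Evi1 Tg, against 2361, 2421 and 1956 in WT. Here too WT 3 lay apart from WT 1 and WT 2 and among the Evi1 Tg arrays. The log2 difference was -0.13 (SE 0.108, 95% interval -0.39 to 0.12, limma adjusted p = 0.771).

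Slc7a5, the light chain for leucine and other large neutral amino acids, read 1589, 1407 and 1449 in Evi1 Tg, against 1154, 1335 and 1418 in WT. The groups overlapped, since WT 3 lay above Evi1 Tg 2. The difference was 0.19 (SE 0.105, 95% interval -0.06 to 0.44, limma adjusted p = 0.613). Slc7a6, which exchanges arginine for neutral amino acids, read 462, 556 and 469 in Evi1 Tg, against 294, 280 and 468 in WT. WT 1 and WT 2 were well below the Evi1 Tg arrays and WT 3 was level with 2 of them. Its difference was 0.55 (SE 0.202, limma adjusted p = 0.415).

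Slc7a8, another light chain for neutral amino acids, had the opposite sign to Slc7a5 and Slc7a6. It read 485, 707 and 479 in Evi1 Tg, against 1056, 1116 and 608 in WT. Evi1 Tg 2 and WT 3 were the arrays that overlapped, and the difference was -0.71 (SE 0.262, limma adjusted p = 0.418). Slc7a7, an arginine and lysine exchanger whose loss causes lysinuric protein intolerance in humans, had geometric means of 318 in Evi1 Tg and 239 in WT. WT 3 was low for this gene, at 172, while WT 1 and WT 2 both read 282, and the difference was 0.41 (SE 0.207, limma adjusted p = 0.572). Slc7a10, a light chain known from neural tissue for small neutral amino acids, was not above background, at 52.6 in Evi1 Tg and 56.2 in WT, a difference of -0.10.

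Within an array, the log2 ratios of Slc7a5, Slc7a6, Slc7a7 and Slc7a8 to Slc3a2 were compared between groups, as was the ratio of Slc7a5 to Slc7a8. Slc7a11, which also pairs with Slc3a2, is not a member of the list, and its ratio was not computed. The Evi1 Tg minus WT difference of the ratio to Slc3a2 was 0.32 for Slc7a5, 0.68 for Slc7a6, 0.54 for Slc7a7 and -0.57 for Slc7a8. The ratio of Slc7a5 to Slc7a8 differed by 0.90, with a mean of 1.43 ± 0.39 in Evi1 Tg and 0.54 ± 0.60 in WT (SD, n = 3 per group, exact two-sided permutation p = 0.2). Over these 5 ratios the exact p ran from 0.1, the smallest that this design allows, to 0.3, and adjusted over the 5 it ran from 0.25 to 0.3. A p under 0.05 could not be reached, so these ratios are given as a description. Only the ratio of Slc7a7 to Slc3a2 had groups that did not overlap.

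Among carriers of the cationic amino acids arginine and lysine, Slc7a1, the widely expressed member, read 573, 632 and 657 in Evi1 Tg, against 432, 496 and 625 in WT. WT 3 lay among the Evi1 Tg arrays and the other WT arrays lay below them. The difference was 0.28 (SE 0.144, 95% interval -0.06 to 0.62, limma adjusted p = 0.589). Slc7a2, which supplies arginine to activated macrophages, read 83.1, 102 and 107 in Evi1 Tg, against 105, 258 and 152 in WT. Its value in WT 2 stood above all other arrays, and the difference was -0.73 (SE 0.305, limma adjusted p = 0.480). It was -0.38 without WT 2 and -1.03 without WT 1. The mast cell protease Cpa3 was also highest in WT 2 and next in WT 3, at 26.1 to 29.9 in Evi1 Tg, against 25.1, 621 and 239 in WT 1, 2 and 3. Cpa3 was singled out after its values were seen, and the part of mast cells in the Slc7a2 values was not tested. Slc7a3 was not above background, and its values of 40.3 to 43.0 in Evi1 Tg lay above 35.9 to 37.9 in WT, a difference of 0.17.

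The Slc38 family holds sodium-coupled carriers of glutamine and other small neutral amino acids. Slc38a1, a glutamine importer, read 1728, 1768 and 1979.9 in Evi1 Tg, against 1204, 1543 and 1414 in WT. All Evi1 Tg arrays lay above all WT arrays, with WT 3 between the other WT arrays. The log2 difference was 0.40 (SE 0.116, 95% interval 0.13 to 0.67, limma adjusted p = 0.289), and it ran from 0.30 to 0.48 as each array was left out in turn. Slc38a2, a carrier known to be induced when amino acids are scarce, read 1429, 1609.9 and 1779 in Evi1 Tg, against 1315, 1453 and 1773 in WT. The groups overlapped broadly and the difference was 0.09 (SE 0.138, 95% interval -0.23 to 0.42, limma adjusted p = 0.901).

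Slc38a6, a less studied relative, had the smallest adjusted p of the members. It read 376, 393 and 392 in Evi1 Tg, against 638, 709 and 465 in WT. The Evi1 Tg arrays lay within a narrow band below every WT array, and WT 3 was the WT array nearest to them. The log2 difference was -0.62 (SE 0.155, limma adjusted p = 0.234), a ratio of WT to Evi1 Tg of 1.54. Slc38a10, another relative, read 301, 348 and 340.1 in Evi1 Tg, against 410.0, 368 and 387 in WT. These groups were also apart and differed by -0.24 (SE 0.0928, limma adjusted p = 0.439), while a second probe set was not above background on average, between 58.4 and 70.6, and is not set against it. Slc38a3 and Slc38a4, carriers known from liver and brain or liver, were not above background. Slc38a3 averaged 39.3 in Evi1 Tg and 37.3 in WT, and Slc38a4 averaged 34.2 in Evi1 Tg and 32.8 in WT, with differences of 0.07 and 0.06.

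Slc6a6, the taurine carrier, read 1450.1, 1562 and 1513 in Evi1 Tg, against 1633, 1778 and 1615 in WT. The groups did not overlap but lay close, and differed by -0.15 (SE 0.0819, 95% interval -0.34 to 0.04, limma adjusted p = 0.603). Taurine is not built into protein. The glutamate and aspartate carriers Slc1a1, Slc1a2 and Slc1a3, known from neurons and glia, were all below background. Slc1a3 nevertheless kept the groups apart, at 42.6, 55.0 and 42.6 in Evi1 Tg, against 33.0, 31.4 and 35.7 in WT (difference 0.48, SE 0.124, limma adjusted p = 0.246). Signal this dim does not show that the gene was expressed. Slc1a1 averaged 36.6 in Evi1 Tg and 45.1 in WT, a difference of -0.30, and Slc1a2 averaged 37.0 in Evi1 Tg and 38.6 in WT, a difference of -0.06.

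The Slc36 and Slc15 carriers, Slc38a7 and Slc38a9, described together, were all above background, 6 of 6. Slc38a9, a lysosomal protein known to report arginine to mTORC1, read 208, 279 and 272 in Evi1 Tg, against 329, 247 and 280.2 in WT. The groups overlapped, and the difference was -0.18 (SE 0.154, 95% interval -0.54 to 0.19, limma adjusted p = 0.798). Slc36a1, which exports small neutral amino acids with protons, averaged 668 in Evi1 Tg and 747 in WT, a difference of -0.16 (SE 0.162). Slc38a7, known in human cells to export glutamine and asparagine from lysosomes, averaged 474 in Evi1 Tg and 413 in WT, a difference of 0.20 (SE 0.226). For both carriers the groups overlapped. They also did for Slc15a4, a histidine and peptide carrier, which averaged 337 in Evi1 Tg and 365 in WT, a difference of -0.12 (SE 0.126). Slc36a4, of the same family as Slc36a1, had probe sets of different sign. The brighter probe set averaged 2082 in Evi1 Tg and 1918 in WT and differed by 0.12 (SE 0.149), and the other differed by -0.37 (SE 0.278), and neither passed the test.

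Slc15a3, a lysosomal carrier of histidine and small peptides known from macrophages and dendritic cells, was the lysosomal member whose groups were apart. It read 78.6, 124 and 119 in Evi1 Tg, against 155, 195 and 179.9 in WT, so the lowest Evi1 Tg array came near to background. The log2 difference was -0.74 (SE 0.189, limma adjusted p = 0.241), a ratio of WT to Evi1 Tg of 1.67. Of 7 macrophage markers 5 lay above background. Among them Adgre1 differed by -1.13 (SE 0.205) and Cd68 by 0.64 (SE 0.190), both named after their values were seen, and the summed intensity of the 7 ran from 4267 to 5029 in Evi1 Tg and from 3365 to 5096 in WT. Their part in the Slc15a3 values was not tested.

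In the Slc43 family, Slc43a3, known in human cells as a carrier of purine nucleobases, read 1167, 1387 and 1513 in Evi1 Tg, against 828, 749 and 1462 in WT. WT 1 and WT 2 were far below the other 4 arrays, and WT 3 lay between Evi1 Tg 2 and Evi1 Tg 3. The difference was 0.48 (SE 0.251, limma adjusted p = 0.592). Slc43a2, a carrier of large neutral amino acids, averaged 442 in Evi1 Tg and 386 in WT, a difference of 0.20 (SE 0.142, 95% interval -0.14 to 0.53). Its relative Slc43a1 was not above background, at 52.7 in Evi1 Tg and 58.6 in WT, and differed by -0.15.

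**Figure D3:**
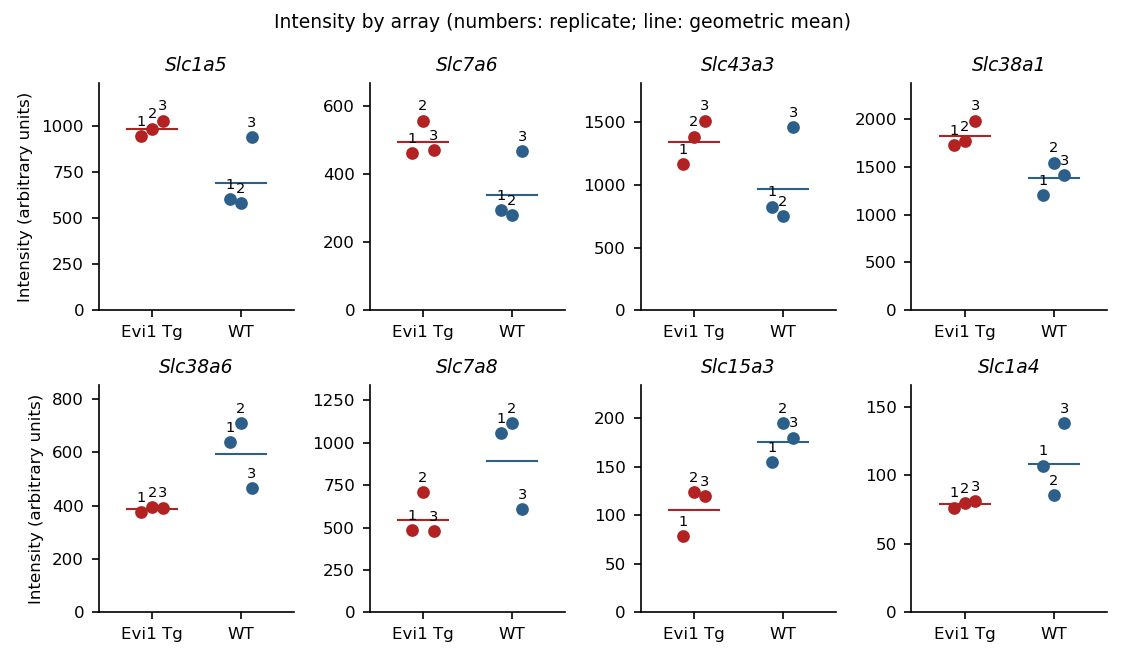
Intensity of 8 transporters on each array (linear axis from 0, arbitrary units), with Evi1 Tg in red on the left and WT in blue on the right, replicate numbers beside the points and lines at the geometric means. WT 3 lies with the Evi1 Tg arrays for Slc7a6 and Slc43a3, between the groups for Slc38a6, and within the other WT arrays for Slc38a1 and Slc15a3.

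Leaving out WT 3 changed the calls. Without it limma called 3 transporters higher and 2 lower in Evi1 Tg, while the same fit called 1.73% of all genes higher and 0.780% lower. Slc1a5 rose by 0.74 (SE 0.0888, limma adjusted p = 0.0211), Slc7a6 by 0.78 (SE 0.113, limma adjusted p = 0.0302) and Slc43a3 by 0.78 (SE 0.132, limma adjusted p = 0.0424) on the log2 scale. Slc38a6 fell by 0.80 (SE 0.0926, limma adjusted p = 0.0205) and Slc7a8 fell by 0.99 (SE 0.182, limma adjusted p = 0.0490). These 5 calls rest on WT 1 and WT 2 alone as the comparison. For each of the 5 genes, WT 3 was nearer to the Evi1 Tg mean than to the mean of WT 1 and WT 2. Leaving it out therefore had to widen these differences, and the calls are no separate evidence for them. Each array was left out in turn, and leaving out any array other than WT 3 called 0 transporters in either direction. Without WT 3 the difference of Slc7a1 was 0.42 (limma adjusted p = 0.111), that of Slc38a1 was 0.42 (0.179) and that of Slc15a3 was -0.73 (0.157). Among the members above background, the differences that shrank most without WT 3 were those of Slc38a7, at 0.04, Slc43a2, at 0.05, Slc7a7, at 0.17, and Slc1a4, at -0.27.

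**Figure D4:**
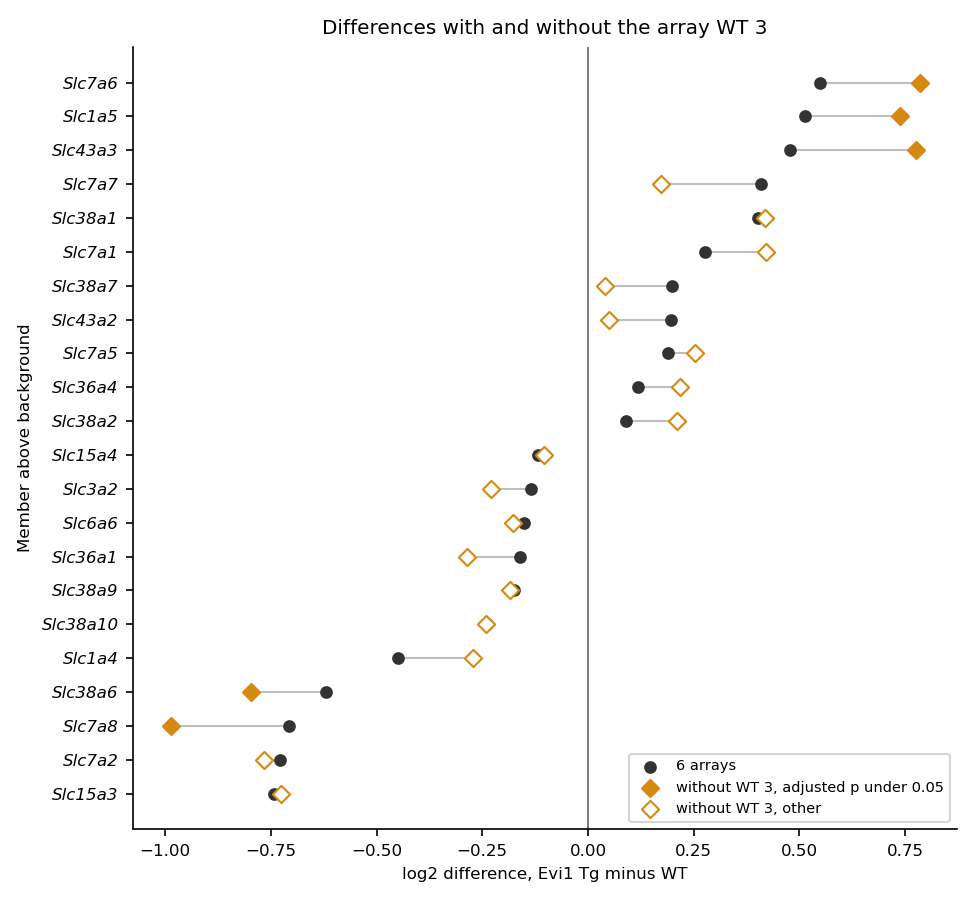
Log2 difference, Evi1 Tg minus WT, of the 22 transporters above background with all 6 arrays (dark circles) and without WT 3 (diamonds, filled where the limma adjusted p was under 0.05). The 5 filled diamonds are Slc7a6, Slc1a5, Slc43a3, Slc38a6 and Slc7a8, each farther from 0 than its circle. This follows from WT 3 being the WT array nearest to the Evi1 Tg mean for these genes.

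Other genes of amino acid transport and sensing gave 0 calls. Of 29 further amino acid and peptide transporters, 5 lay above background, the median difference was 0.01, and 1 of 29 (3.45%) had an unadjusted limma p under 0.05, against 10.3% of all genes. This was Slc7a11, the cystine and glutamate exchanger that pairs with Slc3a2. It read 1005, 1119 and 1487 in Evi1 Tg, against 1886, 1749 and 1411 in WT (difference -0.49, SE 0.173, limma adjusted p = 0.388). Of 9 mitochondrial amino acid carriers 8 lay above background, with a median of 0.13, and the ornithine carrier Slc25a15 was the 1 of 9 (11.1%) with such a p (0.57, SE 0.220, limma adjusted p = 0.438). Of 28 genes of lysosomal amino acid sensing 24 lay above background, 20 had a difference below 0, against 10303 of all 22180 genes, and the median was -0.08. In that list 5 (17.9%) had an unadjusted limma p under 0.05, all with a negative difference. The share was 10.3% of all genes and 17.4% of all genes above background. Among them were Rragc (-0.32), a subunit of the Rag GTPases that recruit mTORC1, and Flcn (-0.31) and Fnip1 (-0.44), whose products act together on Rragc. Sesn2 (-0.94), whose product reports leucine to the same pathway in human cells, and Sesn3 (-0.48, not above background) were the others.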

How the data were processed

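Per the labels' protocols, biotinylated cDNA made from total RNA of 6 samples by the WT PLUS reagents was read on Affymetrix arrays. The deposited table gives 1 intensity per probe set and array on a linear scale, from 17.8 to 14719. The sources used here do not state how the authors corrected, normalized and summarised these intensity values. No further normalization was applied, and log2 of the intensity was tested.

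The table lists 34351 probe sets, and the 23521 that name a single gene were used, leaving out 1814 with several symbols and 9016 without a symbol. Each of 22180 genes was represented by its probe set with the highest mean. Evi1 Tg was compared with WT by limma 3.58.1 (lmFit and eBayes, R 4.3.3) over all genes, with Benjamini-Hochberg adjustment and a threshold of 0.05. The code was tested on simulated data. No count model, interval for counting error or depth applies to intensities. Groups came from the sample labels.

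The transporters and all gene lists were chosen with earlier results of these data known. Members were given array by array where they were above background and either the groups did not overlap or the unadjusted p was under 0.05, as were Slc3a2, Slc7a5, Slc1a5, Slc7a1, Slc38a2 and Slc38a9 whatever their values. Other members were given by the geometric mean of each group and the difference. Slc1a3, Slc7a3, Slc7a7 and Slc43a3 were given more fully than this rule asks. Pathway genes were named where the unadjusted p was under 0.05, and Myc, Tfe3 and Tfeb were named because they read the E-box. Alternatives were quantile normalization, median centring, leaving out dim genes, trended robust eBayes, array weights, a replicate block, means over probe sets and leaving out each array.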

Additional observations from a re-analysis of the deposited data

How the results depend on the processing

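With all 6 arrays, 0 of the 30 measured transporters were called under quantile normalization, median centring, leaving out dim genes, trended robust eBayes, array weights, the replicate block and means over probe sets. As each array was left out in turn, between 0 and 3 members were called higher and between 0 and 2 lower, with the highest counts in each case without WT 3. Over all genes, 2 were called higher and 23 lower with all arrays. The count called higher was 6 with dim genes left out, 6 with trended robust eBayes and 32 with array weights, and the count called lower was 82 with array weights. Leaving out arrays gave 0 to 383 genes higher and 2 to 173 lower. Leaving out Evi1 Tg 1, 2 or 3 gave 0, 0 or 5 genes higher and 7, 2 or 25 lower, and leaving out WT 1, 2 or 3 gave 0, 12 or 383 higher and 8, 39 or 173 lower. A fit without an array has fewer samples. Otherwise the cause was not tested. The median member difference was -0.078 with means over probe sets and ran from -0.055 to 0.020 as arrays were left out.

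Of 385 values of member differences under alternatives, 373 kept their direction and side of the threshold, 5 passed it and 7 changed sign. Trended robust eBayes, the replicate block and leaving out dim genes leave each difference as it was. So do means over probe sets for members with a single probe set. The direction of those values could not change, so the count of 373 is no measure of stability. Of 30 members 25 had no sign change. The 5 that had one were Slc1a2 (-0.16 to 0.034 as arrays were left out), Slc38a2 (-0.0052 to 0.21), Slc38a3 (-0.019 to 0.16), Slc38a4 (-0.00047 to 0.10) and Slc36a4 (-0.051 to 0.22, with -0.13 as a mean over probe sets and -0.37 for its other probe set). The number of members above background was 22 or 23 with the level at other percentiles.

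With the replicate block, 0 genes were called higher and 9 lower. Deviations of arrays sharing a replicate number correlated at 0.19, -0.18 and 0.06 over genes. Across the groups, arrays with different numbers correlated from -0.23 to 0.12. The labels state no pairing, and these values cannot decide whether the samples were paired. With 3 arrays per group, a p that misses the threshold does not show that a transporter was alike in both groups, and for members not above background the printed differences are between dim signals.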
